A study of Homo sapiens and Mus musculus with 15 samples.

Results

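Choroidal endothelial cells, the cells that line the blood vessels behind the retina, were picked out of droplet single-cell RNA sequencing (scRNA-seq) of the back of the mouse eye. They were chosen by their measured counts. A cell was kept if it had UMIs (unique molecular identifiers, 1 per captured RNA molecule) of at least 3 of the 6 endothelial genes Cldn5, Egfl7, Kdr, Flt1, Plvap and Ptprb, no UMI of the leukocyte gene Ptprc, under 4% of its UMIs from 6 genes of the retinal pigment epithelium (RPE) and under 0.3% from 4 fibroblast collagen and proteoglycan genes. This gave 837 members of 30865 cells that passed the quality filter, 576 of 15667 cells at 3 months of age and 261 of 15198 cells at 24 months. Each age was 1 library of C57BL/6J mice, for which the labels give no genetic change or treatment. The retina had been removed and the remaining cells had been freed with papain. Both libraries are labelled RPE, but the preparation also held vessel, connective tissue, pigment and immune cells. The condition field of the 3-month library reads old, whereas its title and age field give 3 months, and it was grouped by the age field. How many animals went into a library is not given in the sources used here.

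The choroid is the vascular bed that feeds the outer retina. Its innermost layer, the choriocapillaris, is a sheet of wide capillaries whose walls are pierced by fenestrae, small pores spanned by diaphragms that are built from the Plvap protein. The RPE keeps these capillaries fenestrated by secreting vascular endothelial growth factor (VEGF), which endothelial cells read through the receptors Kdr and Flt1. Arteries and veins of the outer choroid supply and drain the capillary layer, and veins are where leukocytes leave the blood.

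The endothelial part of the label held when it was checked against 23 endothelial genes that the rule had not used. These genes are not particular to the choroid, so whether members came from it or from other vessels was not tested. All 23 were more than 2-fold higher in members than in the other filtered cells of the same library, with a median log2 ratio of 5.86 at 3 months and 6.68 at 24 months. Outside the rule, the genes that set members apart most, taking the lower of the 2 libraries, began with Dll4, a Notch ligand of sprouting and arterial endothelium, Fam167b, Ces2e, Ihh and Myct1. Levels are given as CPM, the UMIs of a gene per 1000000 UMIs of all genes, summed over the cells of a group. Dll4 stood at 292 CPM in members and 1.23 CPM in other cells at 3 months, and at 147 and 0.463 CPM at 24 months. Mmrn2, a matrix protein of the endothelial surface, had 488 against 2.50 CPM and 512 against 1.18 CPM. Sox18 and Sox17, transcription factors of endothelial identity, Robo4, Adgrl4, Exoc3l2, Stc1, Ptprr, Arhgef15 and AU021092 completed the leading 15. A UMI of Sox18 was found in 73.6% and 75.5% of members and in 1.11% and 0.857% of other cells. These ratios describe cells that were selected on endothelial counts and were not tested.

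**Figure D1:**
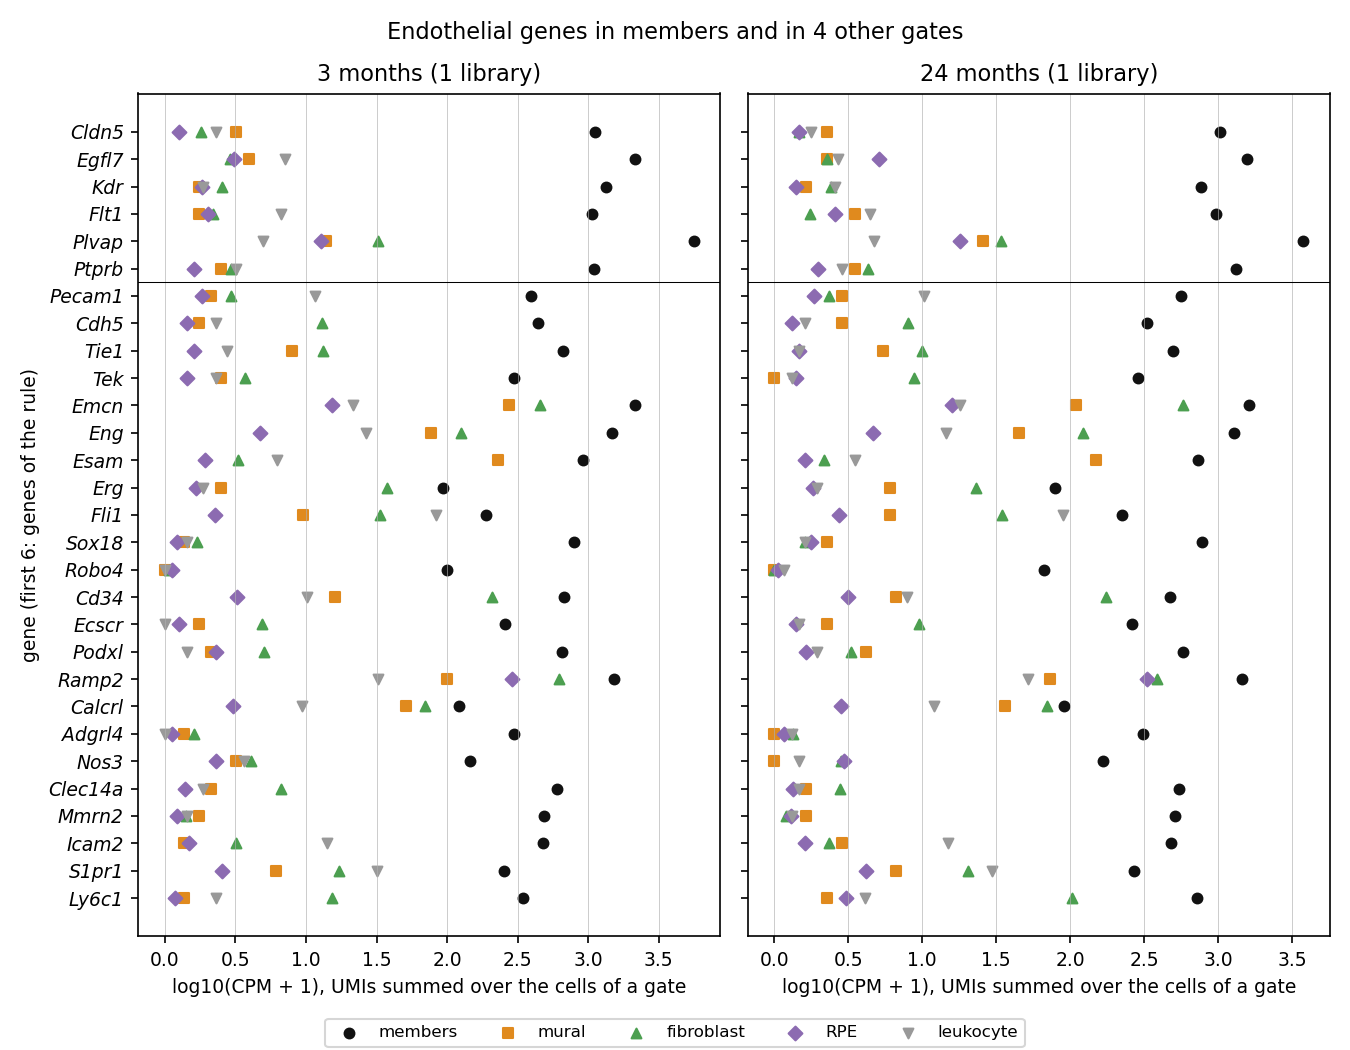
Level of the 6 genes of the rule (above the line) and of 23 further endothelial genes, as log10(CPM + 1), in members (black) and in mural, fibroblast, RPE and leukocyte cells, with 1 library per panel. Members lie to the right for nearly every gene. Calcrl and Fli1 come closest to another cell type.

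The 4 comparison groups were gated on their own markers, from cells with UMIs of fewer than 2 of the 6 endothelial genes. They held 529 and 402 mural cells (pericytes and smooth muscle), 5321 and 3171 fibroblasts, 1605 and 4598 RPE cells and 389 and 1502 leukocytes at 3 and 24 months. Members made up 3.68% (95% exact binomial interval 3.39 to 3.98) of the young library and 1.72% (1.52 to 1.94) of the old one. Such intervals, here and below, cover counting error only. With 1 library per age no test between ages was possible, and age, animal and library cannot be told apart. Members of the old library carried fewer genes of the rule, counted among cells already selected for at least 3 of them. Cells with all 6 endothelial genes were 249 of 576 at 3 months and 73 of 261 at 24 months, while 72 and 46 cells were just inside with exactly 3 genes. Just outside, with exactly 2, were 74 and 25 cells, which carried 5858 and 7845 CPM of the 23 further genes against 8628 and 9221 CPM in cells with exactly 3.

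Members summed to 2164433 UMIs at 3 months and 851002 at 24 months, with medians of 3533.5 and 3059 UMIs and 1744 and 1511 genes per cell. A count of 3 UMIs, taken as the limit of detection, corresponded to 1.39 and 3.53 CPM. The libraries shared 381 cell barcodes, but no barcode was a member in both. RNA of other cells was present and differed between the libraries. The 6 RPE genes summed to 5082 CPM in young and 10061 CPM in old members, and they were also higher at 24 months in mural cells (5891 and 11912 CPM) and fibroblasts (3119 and 6326 CPM). Of the 8 macrophage markers, 7 had 20 or more UMIs. Of these markers 5 were at least 2-fold higher at 24 months (3.09% over all genes with 20 or more UMIs). They summed to 286 and 991 CPM, next to 292 and 1172 CPM in mural cells. The 5 melanocyte markers summed to 1977 and 152 CPM, and were lower at 24 months in each of the 4 other groups too. Of the 6 lymphocyte markers, Cd79a and Ms4a1 had no UMI in members and the rest had none at 3 months and 34 UMIs at 24 months. The 6 rod markers stayed below 4 CPM. Mural genes summed to 882 and 814 CPM, most of it in few cells: 10 cells held 88.4% and 90.3% of the Acta2 UMIs. Fibroblast markers summed to 379 and 288 CPM and Schwann cell markers to 86.9 and 23.5 CPM. Whether RNA from other cells had a part in the age differences below was not tested.

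The members were first described by vessel segment. Lists of capillary, vein, artery, barrier and lymphatic genes were counted in each cell, and a cell was said to carry a segment when it had UMIs of at least 2 genes of the list. At 3 months 62.3% of members (359 of 576, interval 58.2 to 66.3) carried capillary genes, and at 24 months 37.2% (97 of 261, 31.3 to 43.3). Vein genes showed the opposite order, with 33.2% (29.3 to 37.2) at 3 months and 49.0% (42.8 to 55.3) at 24 months. Artery genes were carried by 37.7% and 33.7% of members, with overlapping intervals. Barrier genes were carried by 44.6% and 36.8%. Lymphatic genes were nearly absent, with 1 and 2 cells, and the lymphatic factor Prox1 had 4 and 5 UMIs in all.

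Because many cells carried more than 1 list (340 of 576 and 136 of 261), the count was repeated after every cell had been thinned to 1000 UMIs, which left out 56 young and 18 old members. Capillary genes were then carried by 39.0% and 23.05% of cells, vein genes by 15.2% and 28.0%, artery genes by 12.7% and 15.6% and barrier genes by 10.96% and 11.1%. At this depth capillary and vein genes met in 11 of 520 young cells and 2 of 243 old cells. At full depth the lists met in 89 of 359 young and 26 of 97 old cells with capillary genes. Pairs of single genes at full depth differed. Selp, which codes for P-selectin, a receptor for rolling leukocytes kept in venous endothelium, and Esm1, a product of VEGF-activated capillary and tip cells, were detected together in 0 of 65 Selp-positive cells at 3 months and 0 of 59 at 24 months, which limits cells with UMIs of both to 4.62% and 5.08% but not cells that express both. Selp and the capillary gene Igfbp3 were detected together in 27 of 65 and 15 of 59 of them. Selp and Vwf, von Willebrand factor, shared 60 of the 65 and 55 of the 59 cells.

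**Figure D2:**
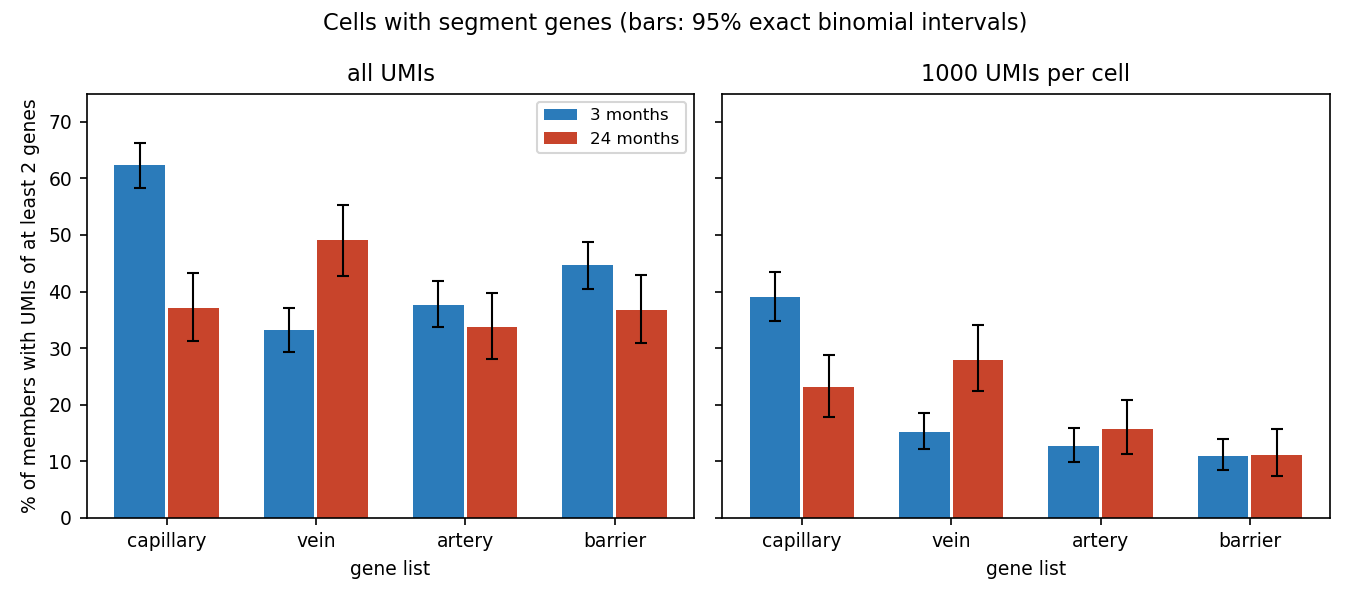
Share of members, in percent, with UMIs of at least 2 genes of each segment list at 3 months (blue) and 24 months (red), at full depth (left) and with 1000 UMIs per cell (right). Error bars are 95% exact binomial intervals. Capillary shares are lower and vein shares higher at 24 months in both panels, while artery and barrier shares overlap in the thinned cells.

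Levels of the segment genes come from the same UMIs as the shares, so they are not a separate result. Summed over all members, all 7 capillary genes were lower at 24 months, 3 of them by at least 2-fold. Their median log2 ratio of 24 over 3 months was -0.95 against -0.07 over all 9981 genes with 20 or more UMIs. Across those genes 505, or 5.06%, were at least 2-fold lower and 308, or 3.09%, at least 2-fold higher. A ratio above 0 was found for 43.3% of them and below 0 for 56.7%, and the interval lay above 0 for 8.23% and below 0 for 10.4%. Col15a1, a collagen of the vessel wall, went from 92.9 to 30.6 CPM (log2 ratio -1.60, interval -2.25 to -1.01). Esm1 was at 259 CPM in 33.2% of members at 3 months and at 119 CPM in 13.4% at 24 months, while 0.132% and 1.36% of fibroblasts, with median depths of 5556 and 4458 UMIs, had a UMI. Gpihbp1, the capillary anchor of lipoprotein lipase, had 103 and 19 UMIs in members and none in the 4 other groups. Igfbp3, a binding protein of insulin-like growth factors, went from 1752 to 1008 CPM, and Cd300lg from 179.7 to 92.8 CPM. Car4, a carbonic anhydrase of the capillary surface, was nearly level at 58.2 and 56.4 CPM. In the 117 young and 34 old cells with capillary genes alone, which were selected on these genes, the list went the other way. Its sum there was 4772 and 5981 CPM (log2 ratio 0.33, interval 0.19 to 0.46). Igfbp3 had 2432 and 3289 CPM in those cells, while Col15a1, Esm1, Gpihbp1, Cd300lg and Car4 were within counting error. In cells with more than 1 list the capillary sum was 3024 and 1585 CPM.

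Among the vein genes 5 of 6 could be compared, and 1 of the 5 was at least 2-fold higher at 24 months (3.09% over all genes). That gene was Vcam1, an adhesion molecule for leukocytes, at 223 and 521 CPM (log2 ratio 1.22, interval 1.03 to 1.41). Vwf came next with 518 and 1022 CPM (0.98, 0.85 to 1.11) and Selp with 191 and 291 CPM (0.61, 0.38 to 0.84). Nr2f2, the transcription factor of venous identity, had 41.6 and 48.2 CPM, a difference within counting error. Ephb4, a venous receptor, had 153 and 125 CPM. Ackr1, a chemokine receptor of venules, had 0 UMIs at 3 months and 9 at 24 months. A Vwf UMI was found in 0.883% and 0.978% of fibroblasts, against 38.5% and 59.8% of members. Fibroblasts had 1.71 and 2.10 CPM (log2 ratio 0.29), with a wide interval (-0.40 to 0.96) that overlaps that of members. In RPE cells Vwf had 0.306 and 1.09 CPM (1.83, 0.66 to 3.23), and in mural cells and leukocytes the difference was within counting error.

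The artery list had no common direction. Fbln5, an elastic fibre protein, went from 66.5 to 142 CPM and Bmx from 25.4 to 50.5 CPM, while Efnb2, the arterial partner of Ephb4, went from 158 to 70.5 CPM (log2 ratio -1.16, interval -1.59 to -0.76). Sox17 had 128 and 200 CPM, and Gja4, a gap junction protein of arteries that mural cells carried at 755 and 625 CPM, had 190.3 and 143 CPM. Efnb2 was also lower in old mural cells, at 164 and 78.1 CPM. In the barrier list none of 5 genes reached a 2-fold difference. Itm2a, the most abundant of them, had 415 and 289 CPM, Slco1c1, a thyroid hormone transporter, 25.4 and 35.3 CPM, Spock2 29.1 and 37.6 CPM and the drug pump Abcb1a 145 and 169 CPM, while Mfsd2a, a lipid transporter of the tight brain and retinal endothelium, had 13 and 2 UMIs.

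**Figure D3:**
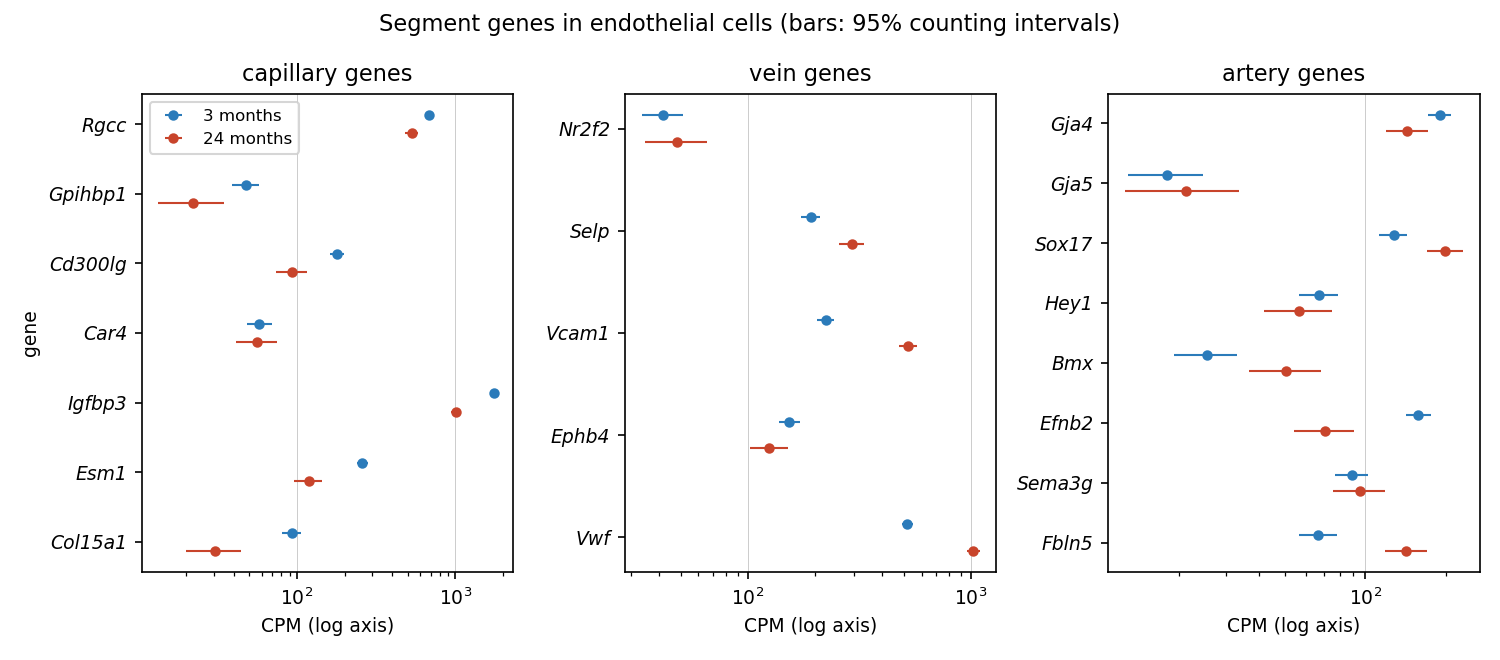
CPM of capillary, vein and artery genes with 20 or more UMIs, summed over members at 3 months (blue) and 24 months (red), on log axes. Error bars are 95% counting intervals. All capillary genes are lower at 24 months, Car4 by less than its interval, and Selp, Vcam1 and Vwf are higher.

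Cells that carried 1 list alone showed what else went with a segment. Plvap played no part in the segment lists. It is a gene of the rule, as is Kdr, so the levels of both in members depend in part on the selection. Plvap stood at 11024 and 8744 CPM in the 117 young and 34 old cells with capillary genes alone. In the 17 and 32 cells with vein genes alone it had 1956 and 2175 CPM, and in the 19 and 18 cells with artery genes alone 575 and 146 CPM. Kdr had the same order, with 2624 and 2207 CPM in capillary cells, 352 and 315 CPM in vein cells and 144 CPM in young artery cells (1 UMI in old ones). Kdr, Plvap, Egfl7, Cldn5, Flt1 and Ptprb are all genes of the rule, so the same limit holds for their levels over all members. Whether the selection had a part in their age differences was not tested. Over all members Kdr went from 1332 to 765 CPM and Plvap from 5609 to 3763 CPM. Egfl7, an endothelial matrix protein, went from 2160 to 1563 CPM, Cldn5 and Flt1 were within 10% of their young level, and Ptprb, a phosphatase that damps the Tek receptor, went from 1107 to 1317 CPM. Further genes that led capillary cells over other members in both libraries included Gng2, Got1, Hilpda, a lipid droplet protein induced by low oxygen, Pdia5 and Impdh1. Vein cells were led by Adamtsl1, Adgrg6, Ptn, Pkp4 and Cxcl10, and artery cells by Pi16, Aif1l, Tmem100, Mecom and Cyth3. The vein and artery cells are few, and these lists were not tested.

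The largest increase among genes found in at least 10% of members of either library was that of Cytl1, a small secreted cytokine-like protein. It had 181 UMIs (83.6 CPM) at 3 months and 512 UMIs (602 CPM) at 24 months, a log2 ratio of 2.85 (interval 2.60 to 3.10). It was found in 11.3% and 37.9% of members, or 4.81% and 25.5% after thinning. It was found in 3.25% and 3.50% of fibroblasts, where its level was also higher at 24 months. There it had 14.5 and 22.3 CPM (log2 ratio 0.62, interval 0.41 to 0.83). Mural, RPE and leukocyte cells had under 2 CPM at both ages, with 0.0875 and 1.25 CPM in RPE cells. Cytl1 and Vwf were found together in 55 of 65 young and 90 of 99 old Cytl1-positive cells. In capillary cells Cytl1 had 1 UMI at each age. In vein cells it had 637 and 725 CPM, and in artery cells it had 2 UMIs at 3 months and 36 at 24 months.

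Slc6a2, the noradrenaline transporter, went from 38 UMIs (17.6 CPM) to 89 UMIs (105 CPM) and was found in 2.95% and 14.6% of members. In fibroblasts it was found in 0.376% and 0.851%, and it was at most 2.71 CPM in any other group. Its young level rested on few cells, as 10 of them held 81.6% of its UMIs. Cdh13, a cadherin that binds adiponectin, went from 13.9 to 61.1 CPM (log2 ratio 2.14). In fibroblasts it was also higher at 24 months, at 4.37 and 15.8 CPM (log2 ratio 1.85, interval 1.54 to 2.17). The stress gene Nupr1 went from 36.5 to 162 CPM, but 10 cells held 73.4% and 81.9% of its UMIs. Of the other genes among the 12 largest increases, Lyz2, a macrophage lysozyme, and Laptm5 were leukocyte genes, and Serpine3, Sult1c1 and Padi2 were highest in RPE cells and higher at 24 months in fibroblasts and mural cells too. Lyz2 went from 146 to 662 CPM in members and from 141 to 756 CPM in mural cells.

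The 12 largest decreases were led by pigment cell genes. Pmel, which builds the fibrils of melanosomes, went from 709 to 18.8 CPM, Tyrp1 from 381 to 15.3 CPM and Mlana from 413 to 18.8 CPM. Cited1, Slc45a2, Mlph, Trpm1 and S100b, which are also expressed in melanocytes, were among them, with Stmn3, Dkk3, Spp1 and Wdfy1. In mural cells all 12 were lower at 24 months as well, Pmel going from 446 to 22.7 CPM. A Pmel UMI was found in 57.8% of young members and in 54.2% of young fibroblasts.

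**Figure D4:**
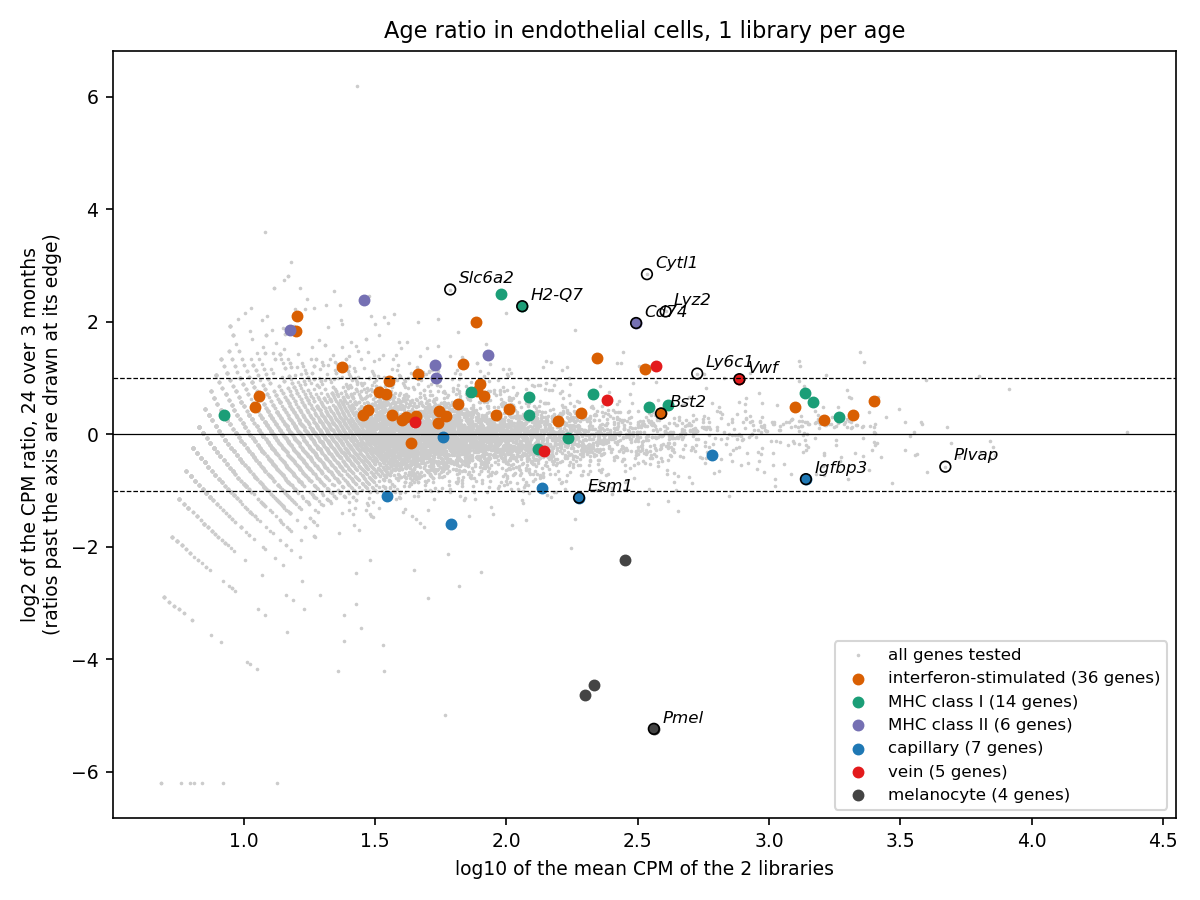
Log2 ratio of CPM, 24 over 3 months, against the log10 of the mean CPM for the 9981 genes with 20 or more UMIs in members. Coloured points are gene lists, circles mark named genes and dashed lines the 2-fold limits. Interferon and MHC genes lie mostly above 0, capillary genes below it and melanocyte genes far below.

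Antigen presentation genes were higher in old members. Major histocompatibility complex (MHC) class I molecules show peptides from inside the cell to T cells and are made by most cell types. Of the 14 genes of this pathway, 2 were at least 2-fold higher at 24 months (3.09% over all genes) and none was 2-fold lower. In 12 the ratio was above 0 (43.3% over all genes), with a median of 0.55. The heavy chain H2-K1 went from 1028 to 1705 CPM (log2 ratio 0.73, interval 0.63 to 0.83), the light chain B2m from 1177 to 1761 CPM and H2-D1 from 1650 to 2052 CPM. The pair past 2-fold were H2-Q6, with 28.6 and 162 CPM, and H2-Q7, with 39.3 and 190.4 CPM. They are close copies of each other, so that reads may be split between them uncertainly. H2-Q7 was found in 12.8% and 39.8% of members and in 1.22% and 7.95% of fibroblasts. The peptide transporter Tap1 and the immunoproteasome subunits Psmb8 and Psmb9 were also higher, but by less than 2-fold, whereas Tap2 and Tapbp were within counting error. The sum of the 14 genes went from 5298 to 7702 CPM in members (log2 ratio 0.54). Its ratio was 0.80 in fibroblasts, 0.44 in RPE cells, 0.29 in mural cells and 0.20 in leukocytes.

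MHC class II molecules show peptides taken up from outside and are mainly made by professional antigen-presenting cells. Of 6 class II genes that could be compared, 5 were at least 2-fold higher in old members (3.09% over all genes). Their median log2 ratio was 1.64. Cd74, the invariant chain, had 273 UMIs (126 CPM) at 3 months and 423 UMIs (497 CPM) at 24 months, a log2 ratio of 1.98 (interval 1.76 to 2.20). H2-Aa went from 46.2 to 123 CPM, H2-Eb1 from 31.9 to 75.2 CPM and H2-DMb1 from 9.24 to 48.2 CPM. H2-Ab1, at 36.0 and 71.7 CPM, had a log2 ratio of 0.99. Their sum was 257 and 844 CPM in members, 84.3 and 171 CPM in mural cells and 94.99 and 138 CPM in fibroblasts. In RPE cells it was 39.0 and 157 CPM, a log2 ratio of 2.01 against 1.71 in members. In leukocytes it went from 42764 to 17368 CPM, the opposite order. Ciita, the master activator of class II genes, had 3 and 4 UMIs in members.

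Class II UMIs were spread unevenly among the cells. A Cd74 UMI was found in 14.4% and 30.3% of members, or 7.31% and 22.6% after thinning, against 2.79% and 3.84% of thinned fibroblasts. At 24 months 30 of 261 members had 5 or more Cd74 UMIs, and at 3 months 12 of 576. Of the 79 old Cd74-positive members, 78.5% had Vwf, 72.2% had Lyz2, 38.0% had Igfbp3 and 25.3% had the myeloid adaptor Tyrobp, against 59.8%, 73.2%, 46.0% and 21.5% of all old members. Of the 83 young ones, 68.7% had Vwf, 40.96% Lyz2, 55.4% Igfbp3 and 9.64% Tyrobp, against 38.5%, 35.1%, 65.8% and 7.64% of all young members. In vein cells the class II sum was 7 UMIs (154 CPM) at 3 months and 91 UMIs (1245 CPM) at 24 months, and in capillary cells 20 UMIs (57.2 CPM) and 16 UMIs (165 CPM). When every member with a UMI of 9 macrophage and lymphocyte genes was left out, which kept 418 young and 140 old cells, the median of the class II list was 2.13. Lyz2 was not among the 9 genes, and this step cannot remove class II RNA that came from other cells. Whether such RNA had a part was not tested.

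Interferon-stimulated genes, which cells switch on against viruses, were mostly higher in old members. Of the 43 listed symbols 41 were matched and 36 had 20 or more UMIs. Of these, 35 had a ratio above 0 (43.3% over all genes), and in 22 the interval lay above 0 (8.23% over all genes). As many as 8 were at least 2-fold higher (3.09% over all genes) and none was 2-fold lower, with a median of 0.49. Ifi44 had 13 and 22 UMIs (log2 ratio 2.11, interval 1.05 to 3.22). Ifit1, which binds foreign RNA, went from 30.5 to 122 CPM, Ifit3b from 6.93 to 24.7 CPM and Iigp1, a GTPase against intracellular parasites, from 124 to 318 CPM. Isg15, a ubiquitin-like modifier, went from 209 to 467 CPM. The abundant Ifitm3, which blocks virus entry, had 2001 and 3029 CPM and the transcription factor Irf1 1046 and 1471 CPM. Ddx58, an RNA sensor, was the exception at 45.7 and 41.1 CPM.

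The interferon list was also higher at 24 months in several other cell types. Its sum went from 8368 to 11818 CPM in members (log2 ratio 0.50, interval 0.46 to 0.53), and the log2 ratio was 0.39 in fibroblasts, 0.18 in mural cells, 0.77 in RPE cells and -0.11 in leukocytes. Iigp1 stood at 318 CPM in old members and at most 17.7 CPM in the other groups. The higher level was met in each segment, with sums of 5433 and 8899 CPM in capillary cells, 9670 and 14459 CPM in vein cells and 8320 and 9661 CPM in artery cells. The list was spread over many cells, although 10 cells held 77.3% and 64.4% of the Ifit1 UMIs. Scaled to 10000 UMIs per cell, the median cell had 69.6 interferon UMIs at 3 months and 105 at 24 months.

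**Figure D5:**
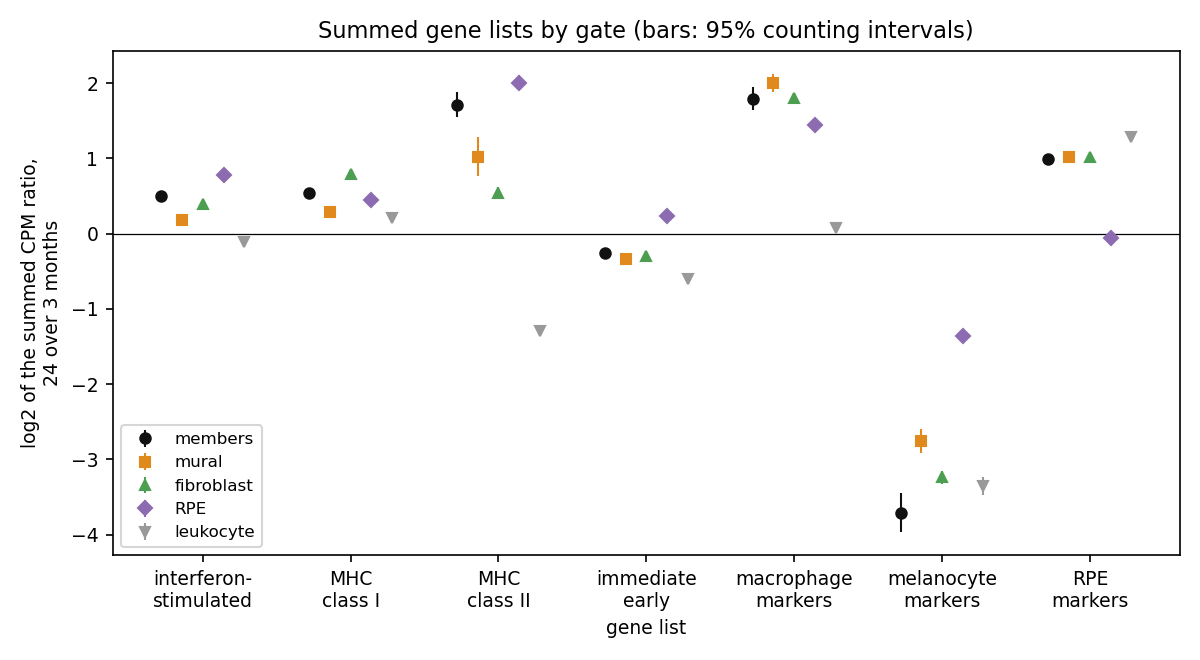
Log2 ratio of the summed CPM of 7 gene lists, 24 over 3 months, in members (black) and the 4 other cell groups. Error bars are 95% counting intervals, often smaller than the symbol. MHC class II is higher in old members and lower in old leukocytes, while macrophage, melanocyte and RPE markers move alike in members, mural cells and fibroblasts.

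Bst2, an interferon-induced membrane protein that the study followed in RPE cells, went from 338 to 437 CPM in members (log2 ratio 0.37, interval 0.19 to 0.55) and was found in 60.1% and 63.2% of them and in 46.5% and 52.6% of fibroblasts. In RPE cells it had 136 and 299 CPM and in fibroblasts 139 and 221 CPM. Ifi27, another interferon gene, had 167 and 217 CPM in members. Genes linked to senescence gave little. Cdkn1a (p21), which arrests the cell cycle, had 723 and 719 CPM, Bax 162 and 150.4 CPM, Bcl2l1 55.0 and 51.7 CPM, and Trp53 105 and 75.2 CPM. The stress cytokine Gdf15 had 45 and 23 UMIs (20.8 and 27.0 CPM). Cdkn2a (p16) had 0 UMIs at both ages, which allows up to 1.39 and 3.53 CPM. Of 12 cell cycle genes only Pcna (91.0 and 70.5 CPM), Mcm2 (21 and 4 UMIs) and Tyms (38 and 16 UMIs) reached 20 UMIs, and the proliferation marker Mki67 had 1 UMI at 3 months and 0 at 24 months.

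Of the 23 further endothelial genes, 1 was at least 2-fold higher (3.09% over all genes) and none was 2-fold lower. The median log2 ratio was -0.07, as over all genes. In 2 of the 23 the interval lay above 0 (8.23% over all genes) and in 9 below 0 (10.4% over all genes). Their sum had a log2 ratio of -0.11 (interval -0.15 to -0.08). The gene past 2-fold was Ly6c1, a surface antigen, at 342 and 723 CPM, which also went from 14.2 to 102 CPM in fibroblasts and belongs to a family of similar genes between which reads may be split. The adhesion molecule Pecam1 had 389.9 and 564 CPM, the cadherin Cdh5 442 and 331 CPM, the sialomucin Cd34 671 and 474 CPM, Robo4 99.3 and 65.8 CPM and the nitric oxide synthase Nos3 144 and 167 CPM. None of the 7 caveolar genes, which shape the membrane pits that carry cargo across the vessel wall, reached 2-fold. Cav1 had 264 and 228 CPM, Cavin1 165 and 195 CPM, Ehd2 151 and 127 CPM and Ehd4 1159 and 915 CPM. Of 10 junction genes, 1 was at least 2-fold higher (3.09% over all genes), Ocln, with 30 UMIs at each age (13.9 and 35.3 CPM). In 2 of the 10 the interval lay above 0 (8.23% over all genes) and in 4 below 0 (10.4% over all genes). Jam3, an adhesion molecule, had 78.1 and 56.4 CPM.

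The Notch list was lower as a sum at 24 months, with a log2 ratio of -0.56 (interval -0.67 to -0.45). The ratio was -0.52 in mural cells, -0.50 in fibroblasts, -0.27 in leukocytes and 0.35 in RPE cells. The interval lay below 0 in 3 of its 10 genes (10.4% over all genes) and above 0 in 1 (8.23% over all genes). In the Notch list 1 of 10 genes was at least 2-fold lower (5.06% over all genes). It was Efnb2, which is a target of the pathway. Just short of 2-fold were the ligand Dll4, with 292 and 147 CPM (log2 ratio -0.99, interval -1.28 to -0.71), and the target Hes1, with 588 and 295 CPM (interval -1.20 to -0.80). Hes1 also had 487 and 316 CPM in fibroblasts. The ligand Jag2 had 50.8 and 72.9 CPM. The receptors Notch1 and Notch4 were within counting error. Within capillary cells Dll4 had 192 UMIs (549 CPM) at 3 months and 16 UMIs (165 CPM) at 24 months. In 9 of 16 growth factor receptors the interval lay below 0 (10.4% over all genes), and in 2 above 0 (8.23% over all genes). Their sum had a log2 ratio of -0.26 (interval -0.31 to -0.21). It was -0.51 in mural cells, -0.45 in leukocytes, -0.23 in fibroblasts and 0.01 in RPE cells. Of the 16 receptors, 2 were at least 2-fold lower (5.06% over all genes). Ednrb, an endothelin receptor that melanocytes also express, went from 487 to 206 CPM and was lower in each of the 4 other groups. Aplnr, the apelin receptor, had 21 UMIs (9.70 CPM) at 3 months and 0 at 24 months, which allows up to 3.53 CPM. Its ligand Apln, a product of sprouting endothelium, had 50 and 5 UMIs. The VEGF co-receptor Nrp1 had 656 and 358 CPM, the receptor Igf1r 34.2 and 51.7 CPM and Tek, the angiopoietin receptor, 297 and 287 CPM.

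The ligands placed members among their neighbours. Vegfa was highest in RPE cells, at 321 and 330.2 CPM, and had 37.4 and 55.2 CPM in members. Angpt1, which activates Tek, was highest in fibroblasts at 463 and 357 CPM. Angpt2, its antagonist, had 35 and 31 UMIs in members (16.2 and 36.4 CPM). The VEGF relatives Vegfb and Pgf had 83.6 and 47.0 CPM and 34.7 and 18.8 CPM in members. Pdgfb, which recruits pericytes, had 94.3 and 125 CPM in members, and its receptor Pdgfrb was highest in mural cells, at 433 and 208 CPM. Edn1, endothelin, had 237 and 288 CPM in members and under 3 CPM in any other group.

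Genes of the vessel wall were mostly lower at 24 months. Of 14 basement membrane genes 12 had a ratio below 0 (56.7% over all genes), and in 10 the interval lay below 0 (10.4% over all genes). Their median was -0.50, and 2 were at least 2-fold lower (5.06% over all genes). The 2 were Col15a1 and the laminin chain Lamb1, with 57 and 8 UMIs. Col4a1, a main collagen of basement membranes, went from 322 to 237 CPM, Sparc from 976 to 682 CPM and Sparcl1 from 239.8 to 152 CPM. Fn1, fibronectin, went the other way, from 97.9 to 184 CPM, and Col18a1 from 82.2 to 129 CPM. The list summed to 2621 and 2023.5 CPM in members, a log2 ratio of -0.37. The ratio was -0.36 in RPE cells, -0.28 in leukocytes, -0.05 in mural cells and -0.04 in fibroblasts.

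In the remaining lists single genes differed. Of 11 lipid and transport genes that could be compared, 1 was at least 2-fold higher (3.09% over all genes). It was the fatty acid carrier Fabp5 (40.7 and 87.0 CPM). Another 1 of the 11, Gpihbp1, was at least 2-fold lower (5.06% over all genes). The lipoprotein receptor Scarb1 went from 362 to 202 CPM and the transcription factor Tcf15 from 216 to 122 CPM. The glucose transporter Slc2a1 had 493 and 722 CPM. The 8 haemostasis genes, Vwf among them, summed to 1311 and 1812 CPM (log2 ratio 0.47). Vwf alone had 518 and 1022 CPM. Of the 8 genes, 3 had a ratio above 0 (43.3% over all genes), and the median log2 ratio was -0.06. Coagulation factor F8 had 47 and 7 UMIs, Tfpi, an inhibitor of clotting, 82.7 and 48.2 CPM, Plat, which starts clot breakdown, 45.3 and 67.0 CPM, and Thbd, thrombomodulin, 276 and 255 CPM. The adhesion genes Icam1 and Sele, E-selectin, had 1267 and 1409 CPM and 264 and 295 CPM, and the chemokine Cx3cl1 350.2 and 302 CPM. Of 6 BMP target genes none but Hes1 came near 2-fold, with Id1 at 540.1 and 753 CPM, Smad7 at 182 and 221 CPM and Smad6 at 132 and 110.5 CPM.

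Immediate early genes, which respond within minutes to stimuli that include tissue dissociation, were abundant at both ages. None of 18 differed 2-fold and their median log2 ratio was -0.34. Their sum was 61521.9 CPM at 3 months and 51460.5 CPM at 24 months, and it was also lower in old mural cells, fibroblasts and leukocytes. In RPE cells it was higher at 24 months, with a log2 ratio of 0.23. Nr4a1 went from 3789 to 2076 CPM, Egr1 from 4892 to 3059 CPM, Dusp1 from 2926 to 1881 CPM, Btg2 from 1913 to 1291 CPM and Ier3 from 2627 to 3595 CPM. The flow-induced factor Klf2 had 3569 and 4068 CPM. Of 10 heat shock genes the pair Hspa1a and Hspa1b, near-identical copies, were at least 2-fold lower (5.06% over all genes). Hspa1a had 269.8 and 95.2 CPM, and both were lower in each of the 4 other groups. The chaperones Dnajb1 and Hspa8 had 495 and 319.6 CPM and 2375 and 1884 CPM.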

How the data were processed

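Per the labels, cells were captured with the 10x Genomics 5′ v2 chemistry, and Cell Ranger 6.0.1 with the mm10 build made the deposited files. These are the authors' raw UMI counts of 32285 genes, without normalization, for 16463 barcodes at 3 months and 17835 at 24 months. No per-sample column was left without a sample. The bulk TPM tables of the series were not used here.

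A cell passed the quality filter if it had 200 or more genes, no UMI of a hemoglobin gene and no more than 10% of UMIs from mitochondrial genes. Members were then chosen by the stated gate, and members and gene lists were chosen with earlier results of these data known. Doublets were not called. Alternatives left out cells with at least 3 mural genes or with the most UMIs. The study's clustering was not repeated.

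UMIs were summed over members per library and divided by their total (CPM), with exact Poisson intervals at 95%. The log2 ratio of 24 over 3 months had an exact conditional interval and was computed for genes with at least 20 UMIs. Shares had exact Clopper-Pearson intervals. Since each age was 1 library, no p-value was computed, and a gene was called higher or lower at a 2-fold ratio. For thinning, 1000 UMIs were drawn per cell. The scripts were tested on simulated counts. Python 3.11.15, numpy 2.4.6, scipy 1.17.1, pandas 2.3.3 and matplotlib 3.10.9 were used.

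Genes were named by rule: the 15 with the largest ratio of members to other cells, the 12 largest increases and decreases with age among genes in at least 10% of members of either library whose interval left out 0, and the 4 largest ratios in each list. One of these genes is not reported here. Genes named beyond these were chosen after their values were seen.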

Additional observations from a re-analysis of the deposited data

Results flagged for a closer look

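Summed gene lists were compared between members and the 4 other cell groups. In 5 such comparisons the list was higher at 24 months in one group and lower in the other, each by at least 0.5 on the log2 scale and with both counting intervals leaving out 0 on opposite sides. The difference between cell groups was not tested, since each age is 1 library. MHC class II genes had a log2 ratio of 1.71 in members and -1.30 in leukocytes, a gap of 3.01. Vein genes had 0.84 in members and -0.83 in leukocytes, a gap of 1.67. Capillary genes had -0.72 in members, while they had 0.50 in fibroblasts, 0.73 in RPE cells and 1.02 in leukocytes, gaps of -1.22, -1.46 and -1.75. In mural cells they went the same way as in members, with -0.64 (43.3 and 27.7 CPM). Outside members the capillary list was low, with 88.9 and 126 CPM in fibroblasts and 3.89 and 6.48 CPM in RPE cells, against 3073 and 1860 CPM in members.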

How the results depend on the processing

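No paired analysis was possible because each age is 1 library and neither has a numbered partner. The medians of the interferon list (0.40 to 0.59), MHC class I (0.54 to 0.71), capillary genes (-1.14 to -0.80) and the 23 endothelial genes (-0.13 to -0.00) kept their sign under all 16 alternatives, 3 of which were chosen after seeing the data, as were all for the class II, capillary and vein lists. The class II median was 2.13 without members that had a leukocyte UMI. The vein median was 0.94 in thinned cells, 0.91 with cells weighted alike and 1.20 without cells with a leukocyte UMI. The immediate early median was -0.20 with RPE genes under 1% of UMIs and -0.40 without the 10 highest cells. Genes at least 2-fold higher numbered 174 of 5860 in thinned cells, against 308 of 9981 in the main setting. They numbered 1919 of 15697 with at least 1 UMI and 75 of 4944 with at least 100 UMIs. Genes at least 2-fold lower numbered 444, 2776 and 85 of the same totals, against 505 of 9981. The share of members was 4.15% at 3 months with 2 endothelial genes required, 3.22% and 1.41% (3 and 24 months) with 4 required, 2.87% and 0.961% with RPE genes under 1% and 3.29% at 3 months with fibroblast genes under 0.1%. Shares with segment genes depended on depth and cutoff. After thinning they were 39.0% and 23.05% for capillary, 15.2% and 28.0% for vein, 12.7% and 15.6% for artery and 10.96% and 11.1% for barrier genes. With at least 3 genes required they were 40.6% and 19.2%, 14.2% and 24.9%, 20.0% and 19.5%, and 17.4% and 13.4%. The order of the ages held for capillary and vein genes in each case and turned for artery and barrier genes in thinned cells. Apart from the numbers of cells or genes that a setting leaves, the cause of these shifts was not tested. With 261 old members, genes under 3.53 CPM could not be measured at that age.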
